A study of Mus musculus with 10 samples.

Results

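The comparison described here is the first move of mouse embryonic stem cells from serum into 2i, read across the whole transcriptome. It takes 4 of the 10 RNA-seq samples of the study, chosen by their labelled culture medium. It sets the 2 libraries of cells kept in 2i with leukaemia inhibitory factor (LIF) for 5 to 6 passages, called first 2i below, against the 2 libraries of cells in conventional serum with LIF, called serum. All the cells derive from the inner cell mass of mouse blastocysts, carry a reporter of Wnt/β-catenin activity, received LIF and grew on gelatin. They were split about every 48 h. 2i here is a GSK3 inhibitor at 3 µM together with the ERK pathway inhibitor PD at 1 µM. The labels describe 1 kind of reporter cell in 1 growth scheme, so the groups differ in inhibitors and in serum together, and what belongs to either cannot be told apart. The labels do not say whether replicates were separate cultures, and p-values therefore measure only the spread between these libraries.

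In serum with LIF, mouse embryonic stem cells self-renew while the Fgf4 they secrete keeps signalling through ERK, a path that primes them to differentiate. 2i blocks that path and, by inhibiting GSK3, stabilises β-catenin, which relieves repression of naive pluripotency genes. The Wnt, ERK and pluripotency responses to 2i are well known. The account below therefore gives most room to other parts of the transcriptome, such as lysosomes, stress response, growth machinery, matrix, signalling pathways outside these 2 and positions along chromosomes.

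Gene counts totalled 21261219 and 20397075 in first 2i, against 21162844 and 19422934 in serum. The share of reads aligned to more than 1 place, which were not counted, was 36.5 and 35.9% in first 2i, against 34.4 and 33.4% in serum. Of 12 genes that define embryonic stem cells, all were detected in every library, and their summed level was 8569 to 8580 CPM (counts scaled to the library total, with TMM factors) in first 2i, against 7803 to 7823 CPM in serum. By gene, 4 of the 12 were higher and 7 lower, 1 and 4 of them at least 2-fold, with a median log2 fold change of -0.39. Sox2 had 771 and 808 CPM in first 2i, against 818 and 811 CPM in serum, a difference that did not pass the test (edgeR adjusted p = 0.426). Markers of fibroblasts and feeder cells summed to 43.3 to 45.8 CPM in first 2i, against 49.5 to 50.6 CPM in serum, and 6 of the 12 were too low to test. Markers of endoderm summed to 401.5 to 412.9 CPM, against 461.5 to 482.3 CPM, and 3 of 10 tested were higher and 6 lower. Col4a1 among them had 0.837 and 0.825 CPM in first 2i, against 118 and 135 CPM in serum. Its fall was larger than that of the sum, so the other endoderm markers together were higher in first 2i. Those of trophectoderm summed to 152.7 to 154.6 CPM in first 2i, against 86.1 to 89.2 CPM in serum. Blood markers summed to 4.33 to 4.76 CPM, against 7.63 to 8.10 CPM, and those of primitive streak to 7.44 to 8.40 CPM, against 3.95 to 4.46 CPM. Among 5 streak markers tested, 2 were higher and 1 lower, with a median log2 fold change of -0.12. Gsc, 1 of the higher, had 3.77 and 4.80 CPM in first 2i, against 0 and 0.104 CPM in serum. Its rise was larger than that of the sum, so the other streak markers together were lower in first 2i. The part of such cells in the results below was not tested. In bulk samples, fewer cells of a type and less RNA per cell cannot be told apart.

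The first passages in 2i changed most of the transcriptome by modest amounts and a smaller set of genes strongly. Of 13676 genes tested with edgeR's quasi-likelihood test, 9693 changed at a Benjamini-Hochberg adjusted p under 0.05, which is 70.9%. The split was even, with 4845 genes higher in first 2i (35.4%) and 4848 lower (35.4%), and the median log2 fold change of all genes was 0.00. Of the changed genes, 3565 moved by less than 0.5 on the log2 scale. A fold of at least 2 was reached by 1686 genes that were higher (12.3%) and 1786 that were lower (13.1%). The first principal component held 94.8% of the variance of the 4 libraries, and replicates differed by a median of 0.10 log2 units in first 2i and 0.11 in serum.

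**Figure D1:**
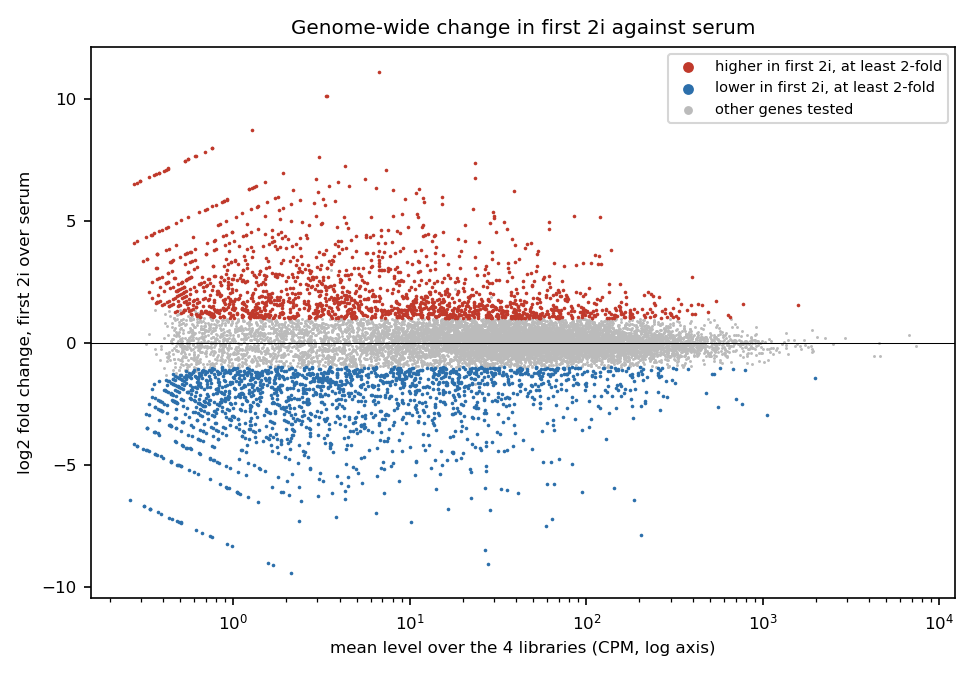
Each point is 1 of 13676 genes, with its mean level over the 4 libraries in CPM on a log axis and its log2 fold change of first 2i over serum. Red and blue points are the 1686 higher and 1786 lower genes changed at least 2-fold, and the fan of large changes narrows above 100 CPM.

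Large changes were concentrated among weakly expressed genes. Of the 1166 genes under 1 CPM on average, 26.4% were at least 2-fold higher and 33.8% at least 2-fold lower. The filter on low counts lets a gene pass through 1 group alone, so part of these differences at the lowest levels is fixed by the filter. Of the 2740 genes above 100 CPM, 4.2% were at least 2-fold higher and 3.61% lower, although 74.6% of them passed the test. The median standard error of a log2 fold change was 0.51 in the lowest bin and 0.06 in the highest. Counts of list members given below are best read with this in mind, since lists of low genes reach a fold of 2 more often.

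The 12 leading increases, outside the well-known Wnt, ERK and pluripotency genes, were of genes with varied roles that were near silent in serum. Slit2, a secreted axon guidance ligand of Robo receptors, had 77.6 and 76.7 CPM in first 2i, against 0.911 and 1.14 CPM in serum (log2 fold change 6.23, SE 0.13, adjusted p = 8.01e-20). S1pr1, a receptor of sphingosine 1-phosphate, had 27.7 and 32.1 CPM, against 0.431 and 0.519 CPM. Spic, an Ets-family transcription factor, had 46.6 and 46.3 CPM, against 0.671 and 0.156 CPM. Each of these 3 genes was expressed at a similar level in both first 2i libraries and at or under about 1 CPM in both serum libraries. Hoxc13, a posterior homeobox gene, had 10.98 and 11.02 CPM in first 2i, against 0.0959 and 0.104 CPM in serum. Dio3, the deiodinase that inactivates thyroid hormone, had 14.1 and 11.6 CPM, against 0.144 and 0.156 CPM. Rasgrp1, an exchange factor that activates Ras, had 17.7 and 19.1 CPM, against 0.240 and 0.363 CPM. The others among the 12 were Car8, Anxa1, Ctnnd2, Bhmt2, Snap91 and Zfp385b, with log2 fold changes of 5.91 to 7.38.

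The 12 leading decreases were likewise of genes with varied roles, all far lower in first 2i. Col4a1, a chain of basement membrane collagen, had 0.837 and 0.825 CPM in first 2i, against 118 and 135 CPM in serum (log2 fold change -7.24, SE 0.13, adjusted p = 2.5e-20). Myrf, a membrane-bound transcription factor known from myelinating cells, had 0.465 and 0.825 CPM, against 109.8 and 126 CPM. Fgfr3, a receptor of fibroblast growth factors, had 0.372 and 0.582 CPM, against 52.3 and 60.1 CPM. The 3 genes were thus all under 1 CPM in both first 2i libraries. Nos3, the endothelial nitric oxide synthase, had 0.465 and 0.582 CPM in first 2i, against 40.4 and 47.7 CPM in serum. Aire, which drives expression of tissue-restricted genes in the thymus, had 0.0930 and 0.291 CPM, against 13.6 and 14.5 CPM. Prrx2, a homeobox factor of mesenchyme, had 0.0930 and 0.146 CPM, against 17.5 and 23.1 CPM. The others were Robo4, Miat, Col5a3, Nxph4, Fignl2 and Spn, with log2 fold changes of -9.09 to -6.15.

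**Figure D2:**
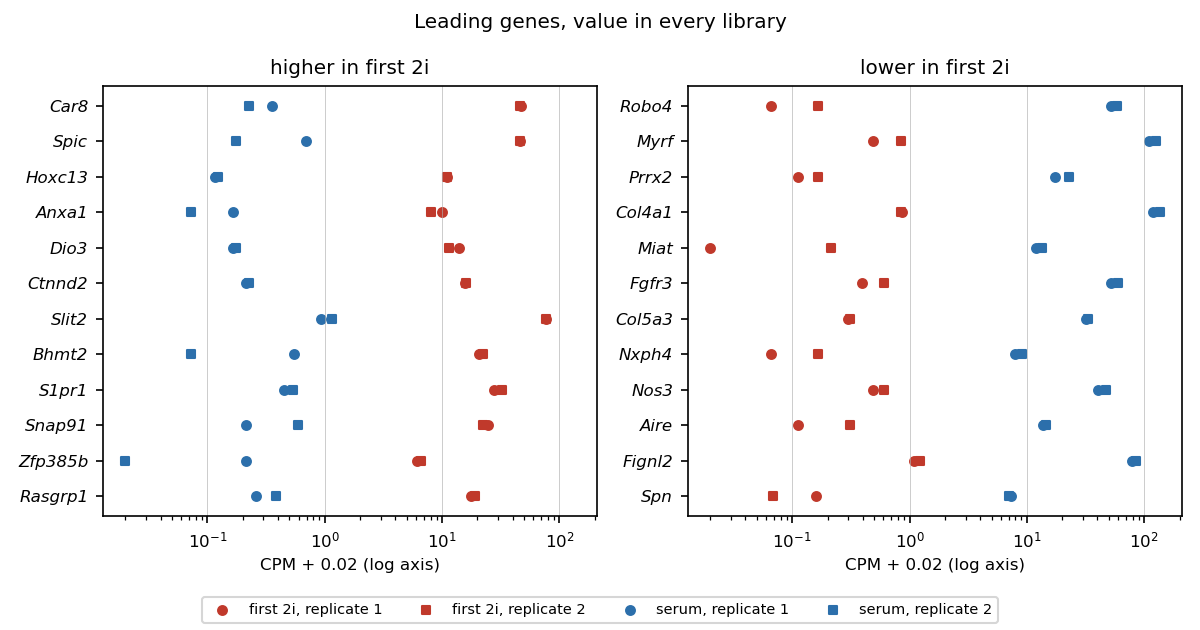
CPM in every library, plus 0.02, on a log axis for the 12 leading higher and 12 leading lower genes, first 2i in red and serum in blue, circles for replicate 1 and squares for replicate 2. For all 24 genes the 2 first 2i points lie on 1 side and the 2 serum points on the other, with no overlap.

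A few genes were all but absent from 1 condition. With at least 5 CPM in first 2i, 8 genes held 3 or fewer counts over both serum libraries. Krt7, a keratin of simple epithelia, had 8.84 and 8.25 CPM in first 2i, against 0.0479 and 0.0519 CPM in serum. Frk, a Src-related tyrosine kinase, had 7.68 and 6.11 CPM, against 0.0959 and 0.0519 CPM. Snx20, a sorting nexin, had 5.68 and 6.21 CPM, against 0.0959 and 0.0519 CPM. These serum values are 1 or 2 counts each, so no fold is given. The homeobox gene Nkx1-2 had 12.7 and 14.0 CPM in first 2i and no count in serum, and with both serum libraries together set at 3 counts it was at least 179-fold higher (counting error only). In the other direction, Mical2, an oxidase of actin, had 0.0930 and 0.0485 CPM in first 2i, against 5.94 and 6.02 CPM in serum. Vwa1, a matrix protein, had 0 and 0.0971 CPM, against 7.57 and 7.53 CPM.

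The largest shifts in counts, which are not corrected for gene length, mixed metabolism with translation and imprinting. Ckb, a creatine kinase that buffers ATP, had 660.2 and 711 CPM in first 2i, against 99.998 and 112 CPM in serum (log2 fold change 2.69, SE 0.06). Mt2, a metallothionein that binds zinc and copper, had 855 and 804 CPM, against 258 and 242 CPM. Mkrn1, a RING-finger protein, had 223 and 233 CPM, against 1257 and 1322 CPM (log2 fold change -2.50, SE 0.05). The first 2 genes rose and Mkrn1 fell, each far beyond the spread of its replicates. Peg10, an imprinted gene derived from a retrotransposon, had 241 and 235 CPM in first 2i, against 1915 and 1848 CPM in serum. Ldha, lactate dehydrogenase A, had 227 and 243 CPM, against 1177 and 1171 CPM. Slc2a1, the main glucose transporter of these cells, had 159 and 153 CPM, against 951 and 978 CPM.

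Lysosomal genes rose as a group. Lysosomes degrade material delivered by endocytosis and autophagy, and many of their enzymes share an E-box in the promoter that the factors Tfeb, Tfe3 and Mitf bind. Of 43 tested genes of lysosomes and autophagy, 32 were higher in first 2i and 6 lower, and 13 were higher and 0 lower by at least 2-fold, with a median log2 fold change of 0.54. Shares over all genes tested were 35.4% higher and 35.4% lower, and 12.3 and 13.1% by at least 2-fold. Lamp2, a membrane protein of the lysosome, had 272 and 249.8 CPM in first 2i, against 49.6 and 48.1 CPM in serum (log2 fold change 2.42, SE 0.07, adjusted p = 3.46e-18). Rragd, a GTPase that links lysosomes to mTORC1 and is itself induced by Tfeb, had 83.4 and 83.9 CPM, against 6.04 and 5.30 CPM. Gpnmb, a glycoprotein of melanosomes and lysosomes, had 6.37 and 6.503 CPM, against 0.671 and 0.675 CPM. All 3 had tight replicates in both media.

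Enzymes and lipid carriers of the lysosome moved by smaller folds at higher levels. Npc2, which moves cholesterol out of the lysosome, had 407 and 395 CPM in first 2i, against 161 and 146 CPM in serum. Asah1, acid ceramidase, had 493 and 459.8 CPM, against 201 and 187 CPM. The same direction was seen for the cathepsins Ctsa, Ctsb, Ctsd and Ctsl, with log2 fold changes of 1.34, 0.83, 0.62 and 0.45. The autophagy receptor Sqstm1 did not pass, with 269 and 281 CPM in first 2i, against 276 and 278 CPM in serum (adjusted p = 0.848). Among the 6 that fell were 2 subunits of the proton pump, Atp6v0d1 and Atp6v0e (log2 fold changes -0.28 and -0.32). Manba, the lysosomal β-mannosidase, fell too (-0.69). By symbol, 11 of 20 tested genes of this pump, the V-ATPase, were higher and 3 lower, 4 and 1 of them at least 2-fold.

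Promoters were available for 34 of these genes. The E-box CACGTG lay in 13 of them and its extended form TCACGTGA in 7, of which 5 were genes that rose and 2 genes that fell. Over the promoter windows of all tested genes, CACGTG was found in 9.94% and TCACGTGA in 1.74%, on either strand, the longer motif always containing the shorter. In the list a gene counts with a match in any of its windows, so these shares are not a like measure. Of the 11 genes with a promoter that rose at least 2-fold, 1 held the extended motif, the cathepsin A gene Ctsa. The 7 windows are shown because they include both directions of change. Capitals mark 1 match in each, and the Ctsa window holds another copy in lower case. The 60 bases around the match run 5′ to 3′ on the gene's strand (RefSeq, GRCm38.p6).
Ctsa: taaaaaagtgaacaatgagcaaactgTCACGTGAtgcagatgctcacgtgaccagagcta
Cln3: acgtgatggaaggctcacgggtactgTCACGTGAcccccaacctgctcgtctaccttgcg
Ctsd: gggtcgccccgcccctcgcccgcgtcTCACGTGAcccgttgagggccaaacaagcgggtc
Mcoln1: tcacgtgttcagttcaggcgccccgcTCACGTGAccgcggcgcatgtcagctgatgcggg
Gla: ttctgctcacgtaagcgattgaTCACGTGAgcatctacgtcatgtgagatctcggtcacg
Atp6v0d1: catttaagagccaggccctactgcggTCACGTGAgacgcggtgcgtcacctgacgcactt
Atp6v0e: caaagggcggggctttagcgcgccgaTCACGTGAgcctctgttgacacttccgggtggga
The windows are chr2:164833734-164833793 for Ctsa (plus strand), chr7:126583325-126583384 for Cln3 (minus), chr7:142387893-142387952 for Ctsd (minus) and chr8:3500447-3500506 for Mcoln1 (plus). Those of Gla, Atp6v0d1 and Atp6v0e are chrX:134601196-134601255 (minus), chr8:105566035-105566094 (minus) and chr17:26676372-26676431 (plus).

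Beside these sequences, the levels were as follows. Cln3, a lysosomal membrane protein, had 45.5 and 44.7 CPM in first 2i, against 24.2 and 25.7 CPM in serum. Mcoln1, the lysosomal calcium channel, had 51.4 and 56.9 CPM, against 38.5 and 41.0 CPM. Ctsa had 204 and 218 CPM, against 82.8 and 83.7 CPM. Another carrier of the motif moved the other way, since Atp6v0d1 had 129 and 129.8 CPM in first 2i, against 159 and 155 CPM in serum. Gla, α-galactosidase A, had 24.2 and 23.1 CPM, against 19.03 and 19.7 CPM, and its call was lost with DESeq2 (adjusted p = 0.0783) and when replicate 1 of either first 2i (0.0704) or serum (0.0573) was left out.

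Genes of serine synthesis, one-carbon metabolism and amino acid stress changed in both directions. The factor Atf4 induces such genes when amino acids are scarce, through a composite C/EBP-ATF element. Of 26 tested genes, 15 were higher and 9 lower, and 6 were higher and 2 lower by at least 2-fold, with a median log2 fold change of 0.21. By at least 2-fold that is 23.1 and 7.69%, against 12.3 and 13.1% of all genes tested, of which 35.4% changed each way. Asns, asparagine synthetase, had 1160.2 and 1157 CPM in first 2i, against 402 and 377 CPM in serum (log2 fold change 1.57, SE 0.05, adjusted p = 1.34e-16). Cbs and Cth, which make cysteine from homocysteine, differed alike. Cbs had 82.0 and 83.4 CPM, against 17.02 and 15.4 CPM, and Cth had 158 and 145 CPM, against 40.4 and 40.5 CPM. Aldh1l2, a mitochondrial folate enzyme, had 12.2 and 12.04 CPM, against 2.64 and 2.80 CPM. Against this, Atf4 itself had 649 and 622 CPM in first 2i, against 814 and 743 CPM in serum (log2 fold change -0.29, SE 0.05). The serine and folate enzymes Phgdh, Shmt2 and Mthfd2 fell too (-0.63, -0.59 and -0.91). Cebpb, a factor that pairs with Atf4, had 0.651 and 1.55 CPM in first 2i, against 3.31 and 4.83 CPM in serum.

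The composite element was searched as TGATGNAA on either strand. It was found in 4 of the 23 genes of this list with a promoter and in 2.24% of the windows of all tested genes. In the list a gene counts with a match in any of its windows, so the shares are not a like measure. The 4 windows are shown because Asns is a textbook target of Atf4 and the other 3 differed in response. Capitals mark the match. In Chac1, Pck2 and Trib3 it lies on the opposite strand and is printed as the gene's strand reads.
Asns: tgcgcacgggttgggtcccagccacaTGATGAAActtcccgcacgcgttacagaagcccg
Pck2: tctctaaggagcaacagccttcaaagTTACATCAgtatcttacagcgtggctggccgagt
Trib3: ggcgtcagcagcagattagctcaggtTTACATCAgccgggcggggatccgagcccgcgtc
Chac1: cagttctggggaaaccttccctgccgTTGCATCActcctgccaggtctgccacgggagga
They lie at chr6:7693199-7693258 (minus strand), chr14:55540137-55540196 (plus), chr2:152344013-152344072 (minus) and chr2:119351023-119351082 (plus) of GRCm38.p6. Pck2, the mitochondrial PEP carboxykinase, had 118 and 115 CPM in first 2i, against 57.1 and 65.3 CPM in serum. Trib3, a pseudokinase, had 65.5 and 67.0 CPM, against 45.2 and 47.5 CPM. Chac1, which degrades glutathione, did not pass, with 17.8 and 20.4 CPM, against 19.7 and 19.6 CPM (adjusted p = 0.744).

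Detoxification genes changed in both directions, and changes of at least 2-fold were mostly upward. Of 35 tested genes of glutathione metabolism and Nrf2 response, 17 were higher and 14 lower (median log2 fold change 0.21). By at least 2-fold 10 were higher and 3 lower, or 28.6 and 8.57%, against 12.3 and 13.1% of all genes tested. Nqo1, a quinone reductase, had 174 and 168 CPM in first 2i, against 38.7 and 33.2 CPM in serum. Gpx2, a glutathione peroxidase of epithelia, had 5.35 and 5.00 CPM, against 0.240 and 0.104 CPM. Gsto1, a glutathione transferase, had 124 and 120.4 CPM, against 36.0 and 34.8 CPM. By contrast Prdx6, a peroxiredoxin, had 50.01 and 52.7 CPM in first 2i, against 324 and 299 CPM in serum (log2 fold change -2.60, SE 0.06). Gclm and Srxn1, which Nrf2 also induces, fell by 0.40 and 0.35 on the log2 scale, and Gclc rose by 0.21, a call lost when replicate 2 of first 2i (adjusted p = 0.0513) or of serum (0.0718) was left out. The aryl hydrocarbon receptor list, which holds the receptor and its partner beside its targets, had 10 tested genes, of which 6 were higher and 1 lower by at least 2-fold, with a median log2 fold change of 2.65. The receptor Ahr had 12.4 and 14.5 CPM in first 2i, against 1.53 and 1.71 CPM in serum, while its partner Arnt had 159 and 159 CPM, against 158 and 161 CPM (adjusted p = 0.999). Ahrr, its repressor, had 4.88 and 3.64 CPM, against 0.144 and 0.363 CPM.

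The machinery of growth and division fell by small, shared steps. Ribosome biogenesis, which makes and trims ribosomal RNA in the nucleolus, had 0 of 39 tested genes higher and 29 lower, 1 of them at least 2-fold, with a median log2 fold change of -0.33. Over all genes tested 35.4% changed each way. Ddx21, a nucleolar RNA helicase, had 374 and 371 CPM in first 2i, against 783 and 758 CPM in serum (log2 fold change -1.05, SE 0.05). Ncl, nucleolin, had 3837 and 3660.3 CPM, against 5765 and 5152 CPM. Nop58 and Mybbp1a did not pass (adjusted p = 0.419 and 0.780). Among mitosis genes 24 of 31 fell and 2 rose, none by as much as 2-fold, with a median log2 fold change of -0.33. Kif23 and Bub1b, a kinesin of cytokinesis and a spindle checkpoint kinase, fell by 0.99 and 0.90 on the log2 scale, while Kif20a did not pass (218 and 218 CPM, against 226 and 221 CPM).

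Replication genes changed by small folds, apart from a cyclin. For the counts in this paragraph, the shares over all genes tested were 35.4% higher and 35.4% lower. Of 43 tested, 5 rose and 20 fell, and 1 fell at least 2-fold. That gene was Ccne1, cyclin E1, with 70.7 and 65.9 CPM in first 2i, against 370.3 and 349 CPM in serum (log2 fold change -2.40, SE 0.06, adjusted p = 1.76e-18). The helicase subunits Mcm4 and Mcm6 did not pass (adjusted p = 0.665 and 0.101), with log2 fold changes of -0.03 and 0.09. By symbol, 31 of 48 proteasome genes were lower and 5 higher, and 35 of 77 mitochondrial ribosomal protein genes were lower and 5 higher, with medians of -0.20 and -0.18. The shares lower were 64.6 and 45.5%, the second nearer that of all genes. Of 28 RNA polymerase subunit genes 17 were lower and 2 higher. Cytosolic tRNA synthetases were mixed, with 5 higher and 9 lower of 20 and none at least 2-fold.

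**Figure D3:**
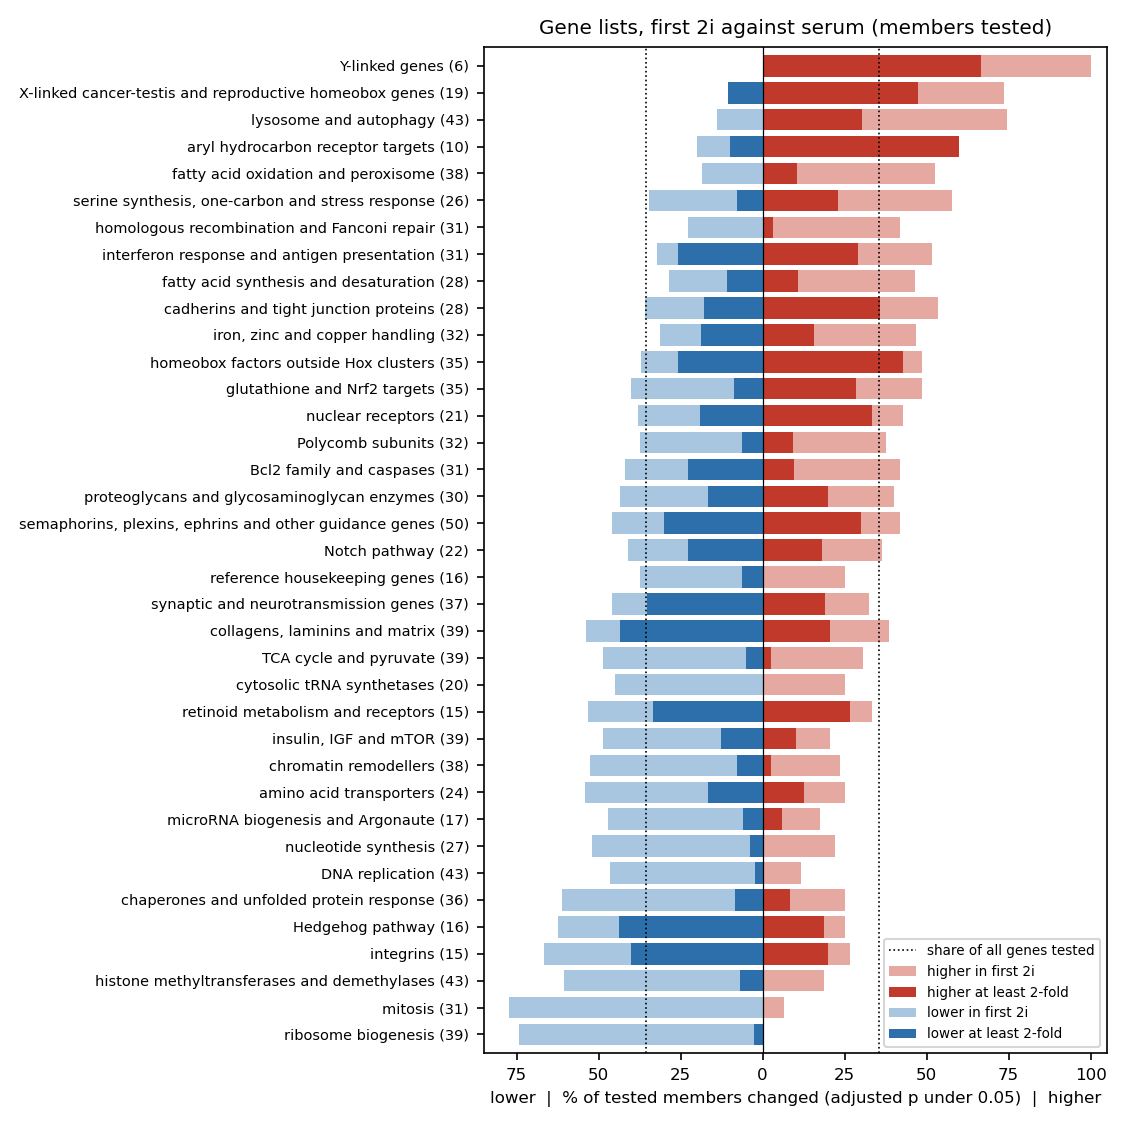
Share of tested members of each of 37 lists that were higher (right, red) or lower (left, blue) in first 2i at an adjusted p under 0.05, darker where the fold was at least 2, with the number tested in brackets and dotted lines at 35.4%, the share of all genes tested. Lysosome and autophagy genes lie near the top, with 32 of 43 higher, and ribosome biogenesis at the bottom, with 29 of 39 lower.

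Matrix genes changed in both directions, and collagens were mostly lower. Of 39 tested genes of collagens, laminins and matrix, 8 were higher and 17 lower by at least 2-fold, with a median log2 fold change of -0.39. Those are 20.5 and 43.6%, against 12.3 and 13.1% of all genes tested. Among genes with a collagen symbol 3 of 25 were higher and 17 lower by at least 2-fold (median -1.48). Col4a2, the partner chain of Col4a1, had 1.54 and 0.631 CPM in first 2i, against 41.1 and 46.1 CPM in serum. Loxl2, which crosslinks collagen, had 1.07 and 1.02 CPM, against 68.6 and 71.3 CPM (log2 fold change -6.06, SE 0.13). Serpinh1, the chaperone of collagen, had 7.54 and 7.33 CPM, against 53.7 and 58.2 CPM. The collagen genes, their crosslinker and their chaperone were thus low in both first 2i libraries. Nid1, nidogen, which joins laminin to collagen IV, had 679 and 703 CPM in first 2i, against 283 and 296 CPM in serum. Lamc1, the common laminin γ1 chain, did not pass (903 and 987 CPM, against 866 and 925 CPM, adjusted p = 0.215).

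Receptors for matrix and contacts between cells changed as well. Of 15 tested integrins 3 were higher and 6 lower by at least 2-fold. Itga9 had 1.49 and 1.65 CPM in first 2i, against 50.7 and 53.9 CPM in serum, and Itga5, a fibronectin receptor chain, had 25.3 and 27.0 CPM, against 135 and 143 CPM. Fn1, fibronectin itself, had 2143 and 2346 CPM, against 1476 and 1654 CPM (log2 fold change 0.52, SE 0.06). Fn1 and Itga5 thus moved in opposite directions, while 3 of the 15 integrins were at least 2-fold higher. Of 28 cadherins and tight junction proteins 10 were higher and 5 lower by at least 2-fold, or 35.7 and 17.9%. Cdh1, E-cadherin, had 503 and 531 CPM in first 2i, against 149.6 and 147 CPM in serum. Dsc2, a desmosomal cadherin, had 8.61 and 9.90 CPM, against 1.44 and 1.30 CPM. Cdh5, the cadherin of endothelium, had 0.233 and 0 CPM, against 5.66 and 6.39 CPM.

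Endothelial markers were mostly lower but did not share 1 direction. Of 9 tested, 2 were higher and 6 lower by at least 2-fold, with a median log2 fold change of -5.46. Those are 22.2 and 66.7%. The list was weakly expressed (median 3.07 CPM), and at 1 to 10 CPM the shares of all genes were 22.4 and 25.2%. Tie1, a receptor of endothelial cells, had 0.0930 and 0.0485 CPM in first 2i, against 3.02 and 4.05 CPM in serum. Pecam1, an adhesion molecule of endothelium that mouse embryonic stem cells also express, had 115 and 125 CPM, against 50.05 and 48.2 CPM. Emcn, which marks veins and capillaries, had no count in any of the 4 libraries. Tek did not pass, with 2.19 and 2.04 CPM, against 2.01 and 2.60 CPM (adjusted p = 0.695). The part of rare differentiated cells in these values was not tested.

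Hedgehog pathway genes were mostly lower. The ligand acts through the receptor Ptch1 and the transducer Smo on the Gli factors, of which Gli1 is a widely used readout. Of 16 tested genes 3 were higher and 7 lower by at least 2-fold, with a median log2 fold change of -0.57. Those are 18.8 and 43.8%, against 12.3 and 13.1% of all genes tested. Gli1 had 4.88 and 6.31 CPM in first 2i, against 67.3 and 78.8 CPM in serum (log2 fold change -3.71, SE 0.12, adjusted p = 1.54e-15). Evc and Evc2, ciliary proteins that promote signalling by Smo, had 3.58 and 3.25 CPM and 6.51 and 6.70 CPM in first 2i, against 35.6 and 41.4 CPM and 41.3 and 42.9 CPM in serum. Smo had 14.7 and 14.5 CPM, against 41.5 and 46.3 CPM. Hhip, which binds and sequesters the ligand, moved the other way, with 17.03 and 17.2 CPM, against 1.01 and 1.30 CPM. Ptch1, itself a Gli target, did not pass, with 39.4 and 41.1 CPM, against 40.1 and 44.0 CPM (adjusted p = 0.483).

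In the Notch pathway 4 of 22 tested genes were higher and 5 lower by at least 2-fold (18.2 and 22.7%, against 12.3 and 13.1% of all genes tested), and few genes lie behind these shares. Mfng, a glycosyltransferase that modifies Notch, had 0.465 and 0.194 CPM in first 2i, against 16.7 and 17.6 CPM in serum. Notch4 had 12.1 and 12.7 CPM, against 49.7 and 58.4 CPM. Maml2, a coactivator, had 4.37 and 3.06 CPM, against 0.288 and 0.208 CPM. Of 15 retinoid genes 4 were higher and 5 lower by at least 2-fold, or 26.7 and 33.3%. At 1 to 10 CPM, where the median of this list lies, the shares of all genes were 22.4 and 25.2%. Rarg, a retinoic acid receptor, had 16.8 and 14.2 CPM in first 2i, against 235 and 247 CPM in serum (log2 fold change -3.96, SE 0.08, adjusted p = 5.48e-20). Aldh1a2 and Aldh1a3, which make retinoic acid, had 6.84 and 5.29 CPM and 7.03 and 6.45 CPM, against 0.671 and 0.779 CPM and 0.863 and 0.415 CPM.

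Insulin, IGF and mTOR genes were lower more often than higher, with 19 of 39 lower and 8 higher. Of all genes tested 35.4% changed each way. At least 2-fold lower were 5 (12.8%) and higher 4 (10.3%), near the 13.1 and 12.3% of all genes tested. Pik3cd, a catalytic subunit of PI3 kinase, had 9.26 and 8.74 CPM in first 2i, against 30.5 and 32.2 CPM in serum. Pik3r1, the regulatory subunit, had 38.9 and 33.4 CPM, against 9.35 and 9.19 CPM. Eif4ebp1 did not pass (405 and 435 CPM, against 449 and 458 CPM, adjusted p = 0.0705). Among Bcl2 family genes and caspases 3 of 31 were higher and 7 lower by at least 2-fold, or 9.68 and 22.6%. Pmaip1, the death-promoting Noxa, had 13.9 and 12.3 CPM in first 2i, against 122.7 and 112 CPM in serum. Bcl2l14 had 23.4 and 22.0 CPM, against 0.815 and 0.883 CPM.

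Most chromatin regulators changed, as did 70.9% of all genes tested (35.4% higher and 35.4% lower), and few of them by 2-fold or more. Of all genes tested 12.3% were higher and 13.1% lower by at least 2-fold. Of 32 Polycomb subunits, which repress developmental genes, 12 were higher and 12 lower, 3 and 2 of them at least 2-fold, with a median log2 fold change of 0.00. Bmi1, a subunit of complex 1, had 34.9 and 33.8 CPM in first 2i, against 4.27 and 3.95 CPM in serum. Phf19, an accessory subunit of complex 2, had 5.02 and 5.00 CPM, against 32.4 and 31.9 CPM, and Jarid2 had 296 and 302 CPM, against 724 and 736 CPM. The core enzymes Ezh2 and Rnf2 did not pass (adjusted p = 0.641 and 0.736). Of 43 histone methyltransferases and demethylases 8 were higher and 26 lower. Kmt2c and Setd1b, which methylate histone H3 lysine 4, fell, with log2 fold changes of -1.503 and -1.64. Kmt2c had 66.6 and 69.6 CPM in first 2i, against 184 and 202 CPM in serum. Of 38 remodellers 9 were higher and 20 lower, 1 and 3 of them at least 2-fold. Chd5 had 1.81 and 2.14 CPM, against 14.8 and 17.9 CPM. For RNA silencing, Ago1 had 243 and 247 CPM, against 108 and 113 CPM, and Lin28a, which blocks let-7 maturation, had 39.8 and 39.5 CPM, against 255 and 251 CPM.

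Interferon-related genes changed in both directions. Of 31 tested genes 9 were higher and 8 lower by at least 2-fold, or 29.0 and 25.8%, against 12.3 and 13.1% of all genes tested. Aim2, a sensor of cytosolic DNA, had 171 and 161 CPM in first 2i, against 5.23 and 3.89 CPM in serum (log2 fold change 5.18, SE 0.10, adjusted p = 5.23e-20). Ddx58, the RNA sensor RIG-I, had 46.7 and 49.0 CPM, against 19.2 and 18.2 CPM. Among the Oas genes, which sense double-stranded RNA, directions differed. Oas1a, a member of the list, had 18.5 and 19.9 CPM in first 2i, against 11.9 and 11.5 CPM in serum. Oas2, outside the list and chosen after its values were seen, had 1.40 and 1.26 CPM, against 23.8 and 24.98 CPM (log2 fold change -4.19), and Oas3 had a log2 fold change of -2.99. Ifitm1 had 132 and 130.3 CPM, against 58.5 and 50.1 CPM. The class I heavy chains H2-K1 and H2-D1, whose near-identical relatives make counts uncertain, had 4.42 and 4.85 CPM and 3.35 and 3.64 CPM in first 2i, against 12.8 and 14.1 CPM and 10.4 and 10.9 CPM in serum. Psmb10, an immunoproteasome subunit, had 10.4 and 9.85 CPM, against 26.7 and 28.1 CPM.

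Fatty acid oxidation and peroxisome genes rose more often than they fell, with 20 of 38 higher and 7 lower, and 4 and 0 at least 2-fold (median log2 fold change 0.23). By at least 2-fold that is 10.5 and 0%, against 12.3 and 13.1% of all genes tested, of which 35.4% changed each way. Acadm, medium-chain acyl-CoA dehydrogenase, had 324 and 332 CPM in first 2i, against 162 and 148 CPM in serum. Acox3, a peroxisomal oxidase, had 92.6 and 94.5 CPM, against 23.9 and 24.0 CPM. Cpt1a, which admits fatty acids to mitochondria, had 278 and 277 CPM, against 146 and 148 CPM. Synthesis and desaturation were mixed, with 13 of 28 genes higher and 8 lower. Scd1, a desaturase, had 652 and 637 CPM in first 2i, against 219.6 and 214 CPM in serum, and Elovl7, an elongase, had 75.6 and 71.1 CPM, against 19.4 and 16.5 CPM. Acly, which supplies acetyl-CoA, did not pass (adjusted p = 0.139).

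Entry of pyruvate into the TCA cycle and metal handling held a few strong changes. Of 39 TCA cycle and pyruvate genes 12 were higher and 19 lower, 1 and 2 of them at least 2-fold. Over all genes tested 35.4% changed each way, and 12.3 and 13.1% by at least 2-fold. Pdk1, which inactivates pyruvate dehydrogenase, had 104.6 and 96.3 CPM in first 2i, against 473 and 476 CPM in serum, and Pdp2, which reactivates it, had 71.7 and 74.8 CPM, against 23.3 and 26.1 CPM. The enzyme's own subunit Pdha1 did not pass, with 298 and 298 CPM, against 297 and 288 CPM (adjusted p = 0.660). Kinase and phosphatase thus changed in opposite directions. Slc39a14, which imports zinc and iron, had 12.003 and 10.3 CPM in first 2i, against 106 and 113 CPM in serum. Slc40a1, the iron exporter ferroportin, had 5.26 and 4.95 CPM, against 0.815 and 0.727 CPM.

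Genes best known from neurons changed on both sides. Of 50 semaphorins, plexins, ephrins and other guidance genes 15 were higher and 15 lower by at least 2-fold, or 30.0% each way. Epha7 had 8.61 and 8.30 CPM in first 2i, against 0.336 and 0.208 CPM in serum, whereas Ephb2, another ephrin receptor, had 3.86 and 6.02 CPM, against 48.7 and 53.0 CPM. Among 37 synaptic genes 7 were higher and 13 lower by at least 2-fold, or 18.9 and 35.1%. Of all genes tested 12.3% were higher and 13.1% lower by that much, and at 1 to 10 CPM, where the medians of both lists lie, 22.4 and 25.2%. Rims1, of the presynaptic release site, had 15.7 and 15.5 CPM, against 0.575 and 0.260 CPM. Slc17a7, the vesicular glutamate transporter, had 0.0465 and 0.194 CPM, against 5.23 and 7.37 CPM. Of 7 tested neural markers Nefl, a neurofilament, had 39.4 and 39.7 CPM in first 2i, against 1.29 and 1.51 CPM in serum, and Tubb3, neuronal tubulin, had 6.70 and 6.16 CPM, against 47.7 and 46.9 CPM. The whole neural list summed to 73.5 to 74.3 CPM, against 84.4 to 86.0 CPM, and its part in these results was not tested.

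Several other lists had changes in both directions, as did all genes tested, with 35.4% higher and 35.4% lower. Of 31 genes of homologous recombination and the Fanconi pathway 13 were higher and 7 lower. Fancm, a DNA translocase of the Fanconi pathway, had 274.6 and 272.7 CPM in first 2i, against 113.8 and 111.6 CPM in serum. Of 24 amino acid transporters 6 were higher and 13 lower. Slc7a7, which carries cationic amino acids, had 9.491 and 10.82 CPM in first 2i, against 120.7 and 121.9 CPM in serum. Chaperone and unfolded protein response genes were mostly lower, with 22 of 36 lower and 9 higher. Xbp1, a factor of the unfolded protein response, had 60.02 and 61.10 CPM in first 2i, against 155.1 and 154.3 CPM in serum. Homeobox factors outside the Hox clusters had 15 of 35 tested genes higher and 9 lower by at least 2-fold, and 58 of the 93 in the files were too low to test. Those are 42.9 and 25.7%, against 12.3 and 13.1% of all genes tested. At 1 to 10 CPM, where the median of this list lies, the shares of all genes were 22.4 and 25.2%. Of 21 nuclear receptors 9 were higher and 8 lower, of 30 proteoglycans and related enzymes 12 and 13, of 32 metal handling genes 15 and 10, and of 27 nucleotide synthesis genes 6 and 14. Of 16 housekeeping genes 4 were higher and 6 lower. Of 17 genes of microRNA biogenesis 3 were higher and 8 lower.

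Among families defined by symbol, zinc finger genes and serpins stood on the higher side. The shares over all genes tested were 35.4% higher and 35.4% lower, and 12.3 and 13.1% by at least 2-fold. Of 335 Zfp genes 172 were higher and 45 lower, and 35 were higher and 7 lower by at least 2-fold (median log2 fold change 0.28). On chromosome 17, 27 of 43 were higher, 2 lower and 12 at least 2-fold higher. Zfp423 went the other way, with 1.91 and 2.67 CPM in first 2i, against 121 and 136 CPM in serum (log2 fold change -5.81, SE 0.12). Serpins, mostly protease inhibitors, had 14 of 17 higher, 11 of them at least 2-fold. Cytochrome P450 genes had 10 of 21 higher and 3 lower by at least 2-fold. Cyp11a1, which starts steroid synthesis, had 0.372 and 0 CPM in first 2i, against 9.25 and 8.36 CPM in serum. Of 40 potassium channel genes 9 were higher and 15 lower by at least 2-fold. Median levels of the serpin, cytochrome P450 and potassium channel genes lay at 1 to 10 CPM. There 22.4% of all genes were higher and 25.2% lower by at least 2-fold. Intraflagellar transport genes, needed to build cilia, had 9 of 14 higher and 2 lower.

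By chromosome, X-linked genes had a higher median than those of any autosome. Their 482 tested genes had a median log2 fold change of 0.29, with 21.2% higher and 10.6% lower by at least 2-fold. Over the 19 autosomes the median ran from -0.13 on chromosome 15 to 0.18 on chromosome 13, the share higher from 9.23 to 16.8% and the share lower from 8.11 to 18.3%. Of X-linked cancer-testis and reproductive homeobox genes 9 of 19 tested were higher and 2 lower by at least 2-fold. Rhox6 and Rhox9 had 9.30 and 7.91 CPM and 8.65 and 7.72 CPM in first 2i, against 0.671 and 0.831 CPM and 0.527 and 0.571 CPM in serum. Xist, the RNA that coats an inactive X chromosome, chosen after its values were seen, had 0.977 and 0.582 CPM, against 3.16 and 4.73 CPM.

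Y-linked genes rose too. All 6 tested were higher, 4 of them at least 2-fold, with a median log2 fold change of 1.45. Ddx3y had 189 and 174 CPM in first 2i, against 92.1 and 85.8 CPM in serum, and Uba1y had 34.2 and 32.7 CPM, against 9.68 and 8.57 CPM. Eif2s3y and Uty, chosen after their values were seen, had log2 fold changes of 0.60 and 0.59. Kdm5d had 2.42 and 2.91 CPM, against 0.0479 and 0 CPM, a single serum count. Whether the share of cells with a Y chromosome differed between the cultures was not tested.

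**Figure D4:**
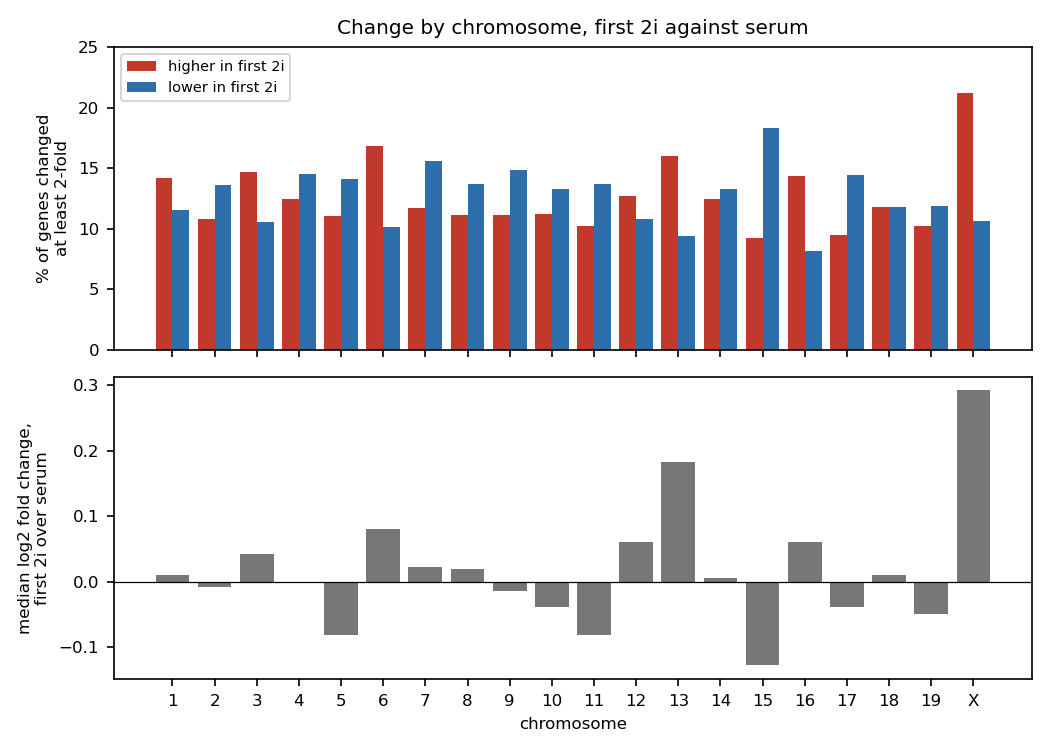
Top, share of tested genes at least 2-fold higher (red) or lower (blue) in first 2i on each chromosome, the Y with its 6 tested genes left out. Bottom, median log2 fold change of first 2i over serum. Of the chromosomes drawn, the X has the tallest red bar, 21.2%, and the largest median, 0.29, while chromosome 15 has the tallest blue bar, 18.3%.

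Genes that changed strongly often followed each other in the order of tested genes, in which untested genes between them are skipped. In the RefSeq gene order (GRCm38.p6), with 12901 tested genes placed, 390 of 1576 genes at least 2-fold higher were followed by another such gene, which is 24.7%, against 12.3% of all genes tested. For genes at least 2-fold lower it was 377 of 1688, or 22.3%, against 13.1%. Runs of 4 or more such neighbours numbered 26 for higher and 27 for lower genes. These runs were looked for after gene values had been seen. Neighbours can share reads where genes overlap, the strand setting is not known, and near-identical members of a cluster split or lose reads, so members of gene clusters are uncertain.

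Several runs were known gene clusters. On chromosome 7, 6 kallikrein genes, which encode secreted serine proteases, were all lower. Klk10 had 1.30 and 1.31 CPM in first 2i, against 16.3 and 17.3 CPM in serum, Klk8 had 0.791 and 0.825 CPM, against 12.3 and 13.2 CPM, and Klk13 had 0.279 and 0.243 CPM, against 8.20 and 8.72 CPM. The weakest, Klk7, lost its call with DESeq2 (adjusted p = 0.051) and when replicate 1 of first 2i was left out (0.101). On chromosome 13, 6 Serpinb genes were all higher. Serpinb1a had 26.0 and 23.8 CPM in first 2i, against 3.31 and 2.70 CPM in serum, and Serpinb6b had 7.12 and 7.86 CPM, against 0.384 and 0.156 CPM. The longest run, with 9 genes, was of zinc finger genes on chromosome 17, with log2 fold changes of 1.11 to 2.50.

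Of the other runs given here, all but the last joined genes of different families. A second stretch of chromosome 13 held 5 higher genes, among them Bhmt, Bhmt2 and Dmgdh, enzymes of betaine and choline metabolism. Dmgdh had 43.9 and 45.5 CPM in first 2i, against 1.15 and 0.831 CPM in serum (log2 fold change 5.48, SE 0.15), and Bhmt had 5.68 and 5.58 CPM, against 0.0479 and 0.156 CPM. Their neighbour Lhfpl2 had 16.9 and 18.2 CPM, against 0.479 and 0.415 CPM. On chromosome 10, 6 lower genes in a row included Aire, given above, and Pfkl, a phosphofructokinase of glycolysis, which had 69.3 and 67.8 CPM in first 2i, against 443 and 472 CPM in serum. Icosl, a costimulatory ligand in the same run, had 3.58 and 3.01 CPM, against 25.7 and 26.2 CPM. On chromosome 15, 6 lower genes ran through Mfng to Card10, which had 1.54 and 1.12 CPM, against 26.9 and 30.3 CPM. The last, on chromosome 3, was a cluster of 1 family, so the uncertainty of clusters given above holds for it. Its glutathione transferase paralogs Gstm1, Gstm2, Gstm3 and Gstm6 were higher by 1.10 to 3.63 on the log2 scale.

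**Figure D5:**
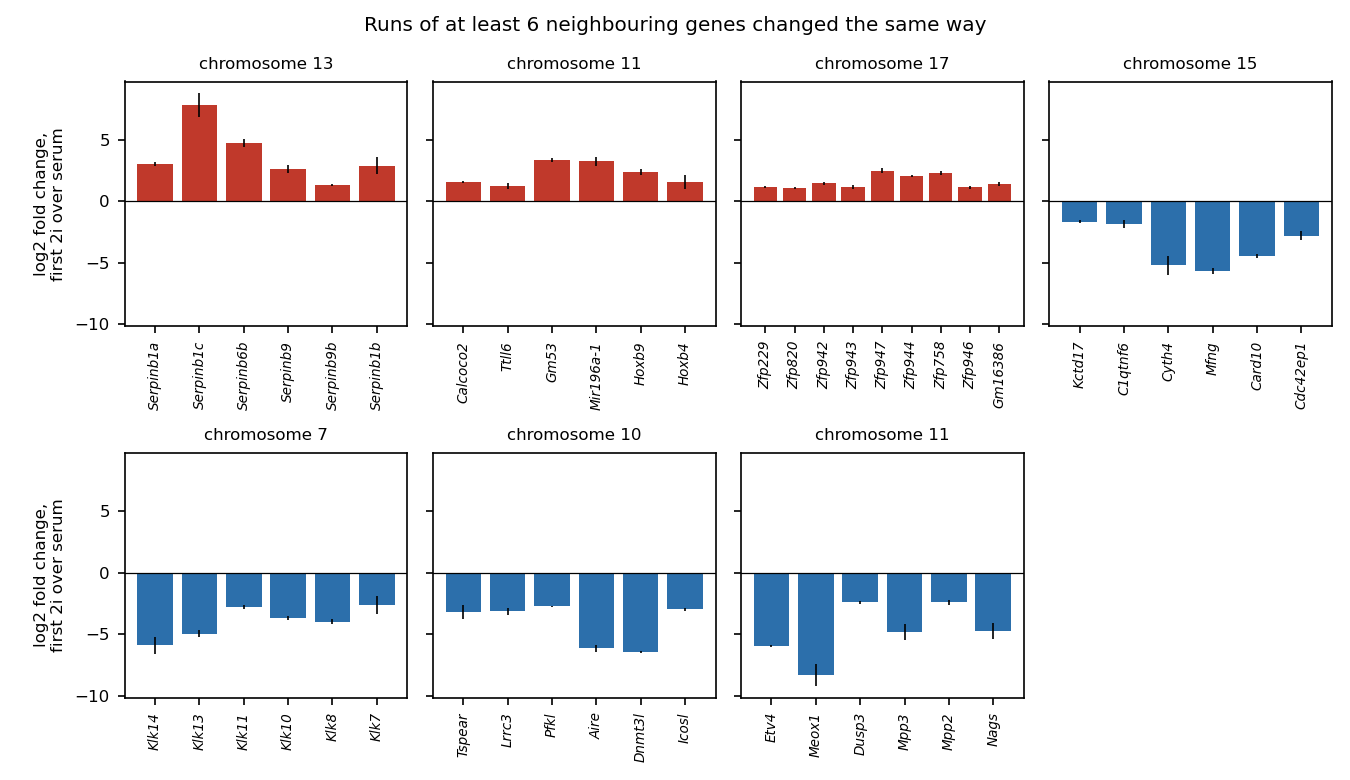
Log2 fold change of first 2i over serum, with its standard error, for each gene in genome order. Shown are the 7 runs of at least 6 neighbouring tested genes that all changed at least 2-fold in 1 direction. The Serpinb and zinc finger runs are higher in all members and the kallikrein run is lower in all 6.

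Promoters of strongly changed genes were poorer in CpG than others. RefSeq windows from 250 bases before to 50 after the start were matched for 10200 of the genes tested, in 12999 windows. The median ratio of observed to expected CpG was 0.56 for genes at least 2-fold higher, 0.60 for genes at least 2-fold lower and 0.78 for the rest. The Ets motif CCGGAAG lay in 8.13% of windows of higher genes and 5.28% of those of lower genes, against 19.7% of the rest and 16.5% of all. The TATA box TATAAA lay in 9.09% and 6.95%, against 6.60% and 6.95%. The Tcf/Lef motif CTTTGAT lay in 2.56% and 2.28%, against 2.44% and 2.43%, so the groups differed little in these letters. Both strands were searched. Genes at low levels, which changed more often, are not separated here, so level and CpG content cannot be told apart.

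Some abundant transcripts stayed level within narrow limits. The 95% interval of the log2 fold change lay within -0.2 to 0.2 for Eef2, Atp5b, Pabpc1, Atp5a1, Serbp1 and Ywhae. Eef2, the translocase of translation, had 4432 and 4654 CPM in first 2i, against 4445 and 4671 CPM in serum. Atp5b, a subunit of mitochondrial ATP synthase, had 2468 and 2442 CPM, against 2604 and 2476 CPM. In all, 724 of the 3983 genes that did not pass had an interval this narrow. For the others the interval reached past these limits, so a difference of that size was not excluded by it.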

How the data were processed

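For every sample the authors deposited raw, whole-number read counts per gene. The tools named in the submitters' processing notes are HTSeq 0.5.4p5, TopHat2 2.0.4, CASAVA 1.8.2 and DESeq2 without a version, and the build is mm9. Not given in the sources used here are the annotation, the strand setting and the read layout. Of each file's lines, 24015 are genes and the last 5, summary categories of the counter, were dropped. Genes made up 51.2 and 51.6% of all records in first 2i, against 54.2 and 54.8% in serum. The rest, including multiply aligned reads (33.4 to 36.5%), was not counted, so near-identical copies lose reads, and overlapping or antisense genes are uncertain.

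Groups were taken from the labelled medium. The test was that of edgeR 4.0.16 under R 4.3.3 on the counts of the 4 libraries (filterByExpr by group, minimum count 10 and total 15, TMM factors, robust quasi-likelihood fit with the group as the only term, 2 residual degrees of freedom). P-values were two-sided and Benjamini-Hochberg adjusted over the 13676 genes tested. "Rose", "fell", "higher" and "lower" refer to an adjusted p under 0.05. CPM are the authors' deposited counts divided by the library total times its TMM factor. Standard errors were derived from each fold change and its F statistic. On simulated counts of the 13676 genes, 200 of them changed, 98% of 2-fold and 82% of 1.5-fold increases were recovered. Of 2-fold decreases 88% were recovered, and 8.5% of the calls were false. The changed genes were drawn from those at 1 CPM or more and were far fewer than the 70.9% called in the data. These rates therefore do not carry over to this comparison or to genes under 1 CPM. Replicates differed by more than sampling noise (chi-square per degree of freedom 3.69 in first 2i and 4.59 in serum) and were counted as separate samples. Floors cover counting error only.

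Members and lists were chosen with earlier results of these data known, so lists carry no test. There were 37 lists of biology, 8 of markers and 3 of well-known ERK, Wnt and pluripotency genes, which were left out of the leading genes. Named genes were the 12 leading genes each way at 5 CPM or more, up to 4 members changed at least 2-fold and 2 unchanged members per list, the 8 largest CPM differences each way, genes at 3 or fewer counts in 1 group, the extreme members of symbol families and 6 unchanged abundant genes. Other members of lists and of neighbour runs that are named were chosen after their values were seen. The text gives part of them. Chromosomes, gene order and promoters are from RefSeq GRCm38.p6, and counts carry no coordinates. Alternatives were DESeq2 size factors, no filter, DESeq2 1.42.0, a fit of all 10 libraries, the title series as a block, leaving out each library, and a test against a fold of 2. Figures were drawn with matplotlib 3.10.9.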

Additional observations from a re-analysis of the deposited data

How the results depend on the processing

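The count of changed genes, 9693, was 9694 with DESeq2 size factors in edgeR, 10158 without a filter on low counts, 8282 with the DESeq2 Wald test, 9952 in a fit of all 10 libraries and 8732 to 9191 without 1 library. The count changed at least 2-fold, 3472, was 3160 to 3859 under the same alternatives, and 2461 genes passed a test against a fold of 2 itself. The titles carry 2 series of names, 1 library of each group in each, whose meaning the labels do not give (correlation of their deviations 0.13). With that series as a replicate block, 10522 genes changed and 3474 by at least 2-fold. The median of all log2 fold changes was 0.00448 with TMM and -0.00224 with DESeq2 size factors. Of 1620 counts of list members under alternatives, 1572 stayed within 1.5 times. Lysosome and autophagy members that were higher numbered 28 to 33, and ribosome biogenesis members that were lower 24 to 30. Cdh11, a cadherin that did not pass (2.65 and 11.99 CPM in first 2i, against 7.24 and 8.36 CPM in serum), had a log2 fold change of 0.63 in the other direction without replicate 1 of first 2i (adjusted p = 0.000578) and of -1.55 without replicate 2. Rn45s, the ribosomal RNA precursor, lost its call with all 10 libraries (adjusted p = 0.576), and Hsp90ab1 without either first 2i library or replicate 1 of serum (0.0763 to 0.221). The cause was not tested. With 2 libraries a group, genes under 1 CPM had a median standard error of 0.51, so depth limits what can be said of them.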

Other observations

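Further genes that no comparison above describes moved with large folds. Slc16a9, a carnitine transporter, had 60.1 and 56.9 CPM in first 2i, against 1.77 and 1.40 CPM in serum, and Gpr56, an adhesion receptor, had 71.1 and 73.7 CPM, against 4.17 and 3.27 CPM. Scn3a, a sodium channel, had 47.9 and 45.4 CPM, against 2.88 and 2.49 CPM. Ankrd33b had 4.09 and 3.25 CPM in first 2i, against 105.03 and 116 CPM in serum, and Adamts14, a procollagen protease, had 1.16 and 1.70 CPM, against 34.5 and 40.8 CPM. Abca1, which exports cholesterol, had 38.7 and 41.4 CPM, against 172 and 191 CPM, and Rab31, a GTPase of vesicle traffic, had 15.4 and 14.0 CPM, against 94.6 and 93.6 CPM. All 7 passed edgeR's quasi-likelihood test, for example with an adjusted p of 9.32e-17 for Abca1 and 2.38e-17 for Rab31.

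In 3 families, members chosen for lying at opposite ends took opposite directions. Klf12, a repressor of the Kruppel-like factors, had 25.6 and 27.4 CPM in first 2i, against 1.87 and 1.56 CPM in serum, while Klf11 had 30.4 and 30.7 CPM, against 40.9 and 42.9 CPM. Sox21 had 53.7 and 63.0 CPM, against 1.53 and 1.82 CPM, while Sox7, a factor of endoderm and endothelium, had 1.44 and 1.07 CPM, against 34.0 and 36.6 CPM. Kif5a, a neuronal kinesin, had 97.1 and 97.8 CPM, against 26.6 and 27.8 CPM, while Kif19a had 0.279 and 0.146 CPM, against 4.65 and 4.88 CPM.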
